A study of Mus musculus with 12 samples.

Results

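The 4 families of secreted growth factors studied here, the fibroblast (FGF), platelet-derived (PDGF), hepatocyte (HGF) and insulin-like (IGF) growth factors, were examined with their receptors and binding proteins in mouse melanoma tumours. Genes belonged to the set if their mouse symbol began with Fgf, Pdgf, Igf or Hgf, with Pdgfra left out, and each was represented by its probe set of highest mean signal. That gave 49 genes of the 909 that the array's probe names identified: 26 of the FGF family, 5 of the PDGF family, Hgf, and 17 whose symbols begin with Igf. All probe sets of Igfbp4 were kept, so 51 probe sets are described. Choosing by symbol also took in 3 RNA-binding proteins (Igf2bp1, Igf2bp2, Igf2bp3), which bind the Igf2 message and are no growth factors. It took in Igfl3 as well, which is counted here with the IGF ligands by its symbol only.

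Tumour RNA was hybridised to 12 focused Affymetrix arrays, and the deposited values are log2 levels for 1246 probe sets. Mice were either wild-type or homozygous for the loss of galectin-3 (Gal3 -/-), a lectin encoded by Lgals3, and both kinds of host were injected with either the melanoma line Tm1N3 or the melanoma line Tm1G3. Per the labels, Tm1N3 cells express galectin-3 and in Tm1G3 cells its gene is silenced. The hosts were syngeneic to the cells, and the series text speaks of a melanoma line with a silent galectin-3 gene into which a plasmid coding for it was brought. Each of the 4 groups of line and host had 3 arrays; the number of clones behind a line and the age and sex of the hosts are not given in the sources used here. The labels do not say that each replicate was a separate animal, so the p-values speak only of spread between samples, which may be technical.

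Lgals3 did not separate the groups, with means of 9.97 and 9.86 in Tm1N3 tumours of wild-type and knockout hosts and 9.61 and 9.31 in the same order in Tm1G3 tumours, and its ranges overlapped, so these values do not settle which line expressed it and the lines go by name here. Of 12 melanocyte markers only Kit was measured, so the tissue label could not be checked. All 12 arrays had medians within 0.0945 of each other. In the titles the knockout and wild-type arrays carry separate runs of numbers, whose meaning is not given, so anything those runs stand for cannot be told apart from the host. In whole tumours, fewer cells of a type and less RNA per cell cannot be told apart either.

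FGFs bind receptor tyrosine kinases together with heparan sulfate, or, for the endocrine members, with a Klotho co-receptor, and are known for acting on fibroblasts, endothelium and melanocytes. PDGFs act on fibroblasts and pericytes through Pdgfra and Pdgfrb, and HGF, made mainly by mesenchymal cells, drives growth and movement of melanocytes and epithelium through the receptor Met. IGFs signal through Igf1r, are taken up by Igf2r, and are held in body fluids and matrix by a family of binding proteins that limit or prolong their action.

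Upstream sequence is shown for the gene with the widest line difference, Fgf21, and for 3 genes whose arrays stood high together, Pdgfc, Igf1 and Igfbp6. Each line gives the 250 bases before the RefSeq transcription start, in transcript orientation, from build GRCm38.p6; 38 of the 49 genes had an entry. The Fgf21 window is chr7:45615491-45615740 on the minus strand, the Pdgfc window chr3:81036166-81036415 on the plus strand, the Igf1 window chr10:87860861-87861110 on the plus strand and the Igfbp6 window chr15:102143936-102144185 on the plus strand. Capitals mark matches to 6 motifs searched on both strands.
Fgf21: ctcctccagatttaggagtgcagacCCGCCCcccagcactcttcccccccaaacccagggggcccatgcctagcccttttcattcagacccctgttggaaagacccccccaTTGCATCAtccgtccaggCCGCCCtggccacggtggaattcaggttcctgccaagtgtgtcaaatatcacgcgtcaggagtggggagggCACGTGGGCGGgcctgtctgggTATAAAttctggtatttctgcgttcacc
Pdgfc: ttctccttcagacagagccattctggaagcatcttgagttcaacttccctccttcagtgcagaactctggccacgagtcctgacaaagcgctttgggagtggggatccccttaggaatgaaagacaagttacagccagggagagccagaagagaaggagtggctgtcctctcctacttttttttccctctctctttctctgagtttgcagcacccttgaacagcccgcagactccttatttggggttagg
Igf1: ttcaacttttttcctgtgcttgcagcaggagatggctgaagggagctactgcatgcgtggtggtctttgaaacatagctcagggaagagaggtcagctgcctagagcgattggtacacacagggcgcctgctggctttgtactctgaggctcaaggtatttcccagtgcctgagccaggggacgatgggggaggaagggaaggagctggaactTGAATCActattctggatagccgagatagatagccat
Igfbp6: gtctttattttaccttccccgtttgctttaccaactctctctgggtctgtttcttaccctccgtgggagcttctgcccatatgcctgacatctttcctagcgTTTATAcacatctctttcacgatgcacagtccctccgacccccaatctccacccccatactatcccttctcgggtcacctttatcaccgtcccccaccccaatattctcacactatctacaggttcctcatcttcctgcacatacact

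The motifs were the C/EBP-ATF composite element (TGATGNAA, present in 3.45% of all 32851 such windows), the AP-1 element (TGANTCA, 6.75%), the GC box (GGGCGG, 32.7%), the TATA box (TATAAA, 12.4%), the E-box (CACGTG, 6.02%) and the M-box core of melanocyte promoters (TCATGTG, 3.25%). Fgf21 held a composite element on the reverse strand, 139 to 132 bases before the start, 3 GC boxes, an E-box whose last base is the first of the nearest GC box, and a TATA box 28 to 23 bases before the start. Igf1 held TGAATCA, a match to the AP-1 pattern searched, 37 to 31 bases before its start. That pattern left the middle base open, where the AP-1 consensus has C or G, so the match is no consensus site. Igfbp6 held a reverse TATA match 148 to 143 bases before its start, and Pdgfc none of the 6. No motif was shared by Pdgfc, Igf1 and Igfbp6. These matches describe letters only.

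Most of the 49 genes varied little. The range over the 12 arrays had a median of 0.403 on the log2 scale, beside 0.439 for all probe sets, and stayed under 0.5 in 33 genes. By mean probe signal 13 genes lay in the lowest 25% of the array and 6 in the top 25%; signals of different probe sets are not compared as amounts. Of the 49 genes, 9 had an unadjusted p under 0.05 in at least 1 of 7 comparisons (18.4%), beside 27.9% of all probe sets, and 40 had none in any.

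**Figure D1:**
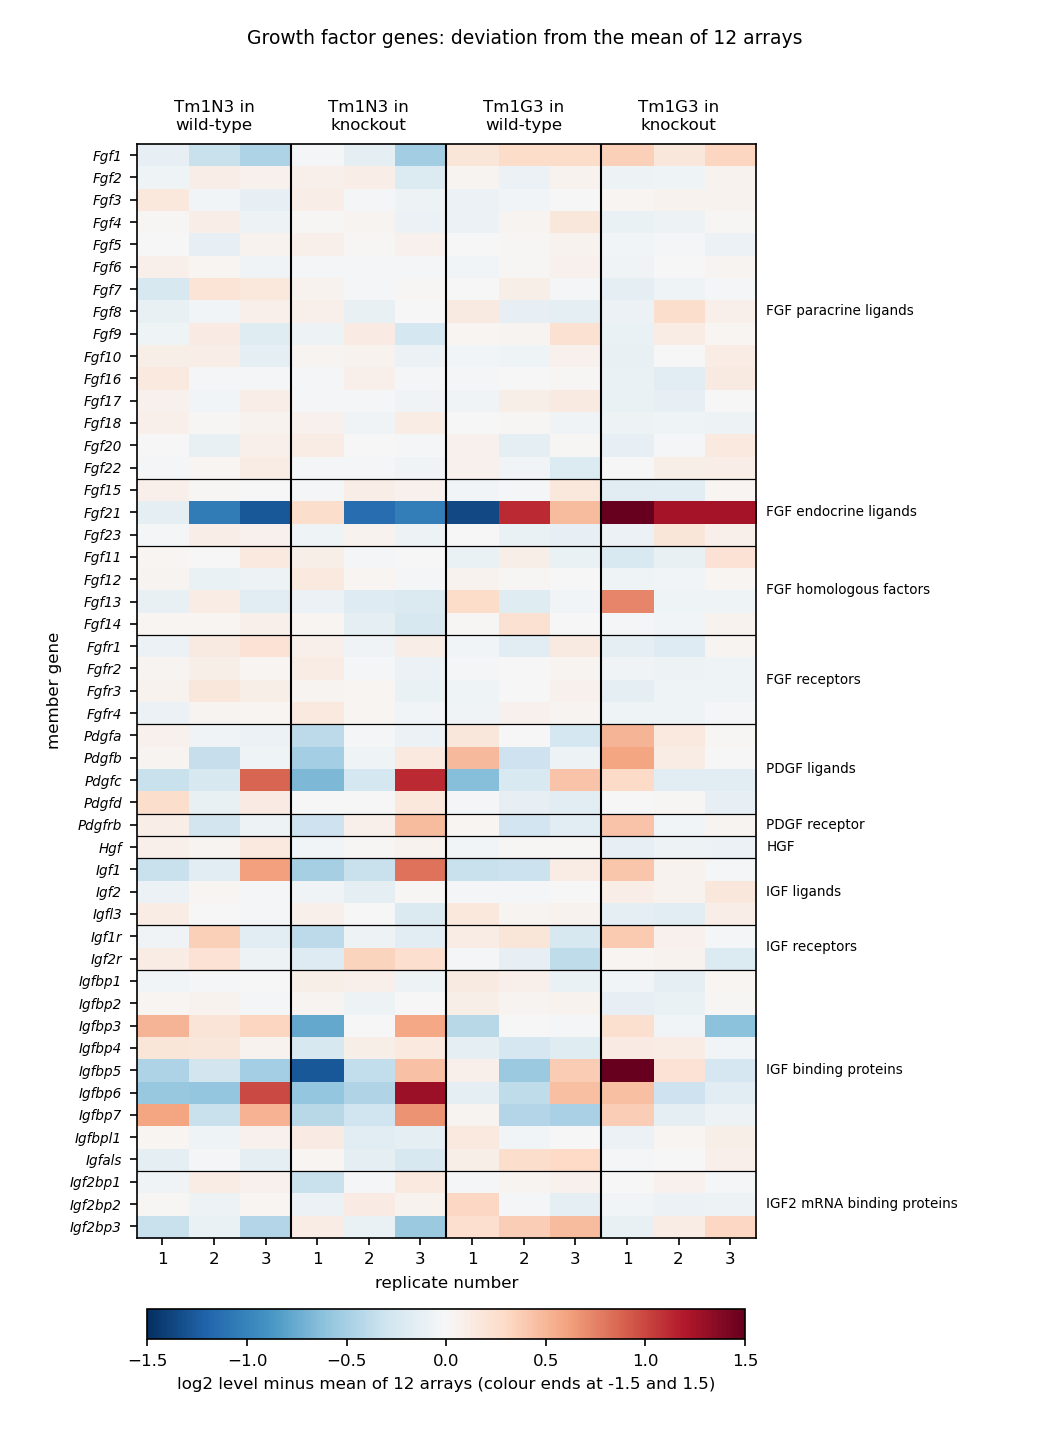
Log2 level of each of the 49 genes (rows, grouped by role) on each of 12 arrays (columns, 3 replicates in each of 4 groups), as the difference from that gene's mean over the arrays. Fgf21 is red in 5 of 6 Tm1G3 columns and blue in 5 of 6 Tm1N3 columns, Igfbp5 is darkest in replicate 1 of Tm1G3 tumours in knockout hosts, and most rows are nearly white.

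The line comparison asks what differs between Tm1N3 and Tm1G3 tumours, and is given as Tm1N3 minus Tm1G3. Averaged over hosts, 1 of the 51 probe sets, that of Fgf1, passed an adjusted p of 0.05 (limma, Benjamini-Hochberg adjustment over all 1246 probe sets), beside 4.25% of the whole array. An unadjusted p under 0.05 was found for 7 of the 51 (13.7%), beside 16.4% of the array. The median difference was 0.01 over the 51 and 0.0027 over all probe sets. In wild-type hosts none of the 51 passed, beside 0.883% of the array, and 6 had an unadjusted p under 0.05 (background 13.1%). In knockout hosts none passed either, beside 0.722%, and 4 had an unadjusted p under 0.05 (background 9.47%). The lines did not overlap for 9 of the 51 in wild-type hosts (17.6%, background 16.9%) and for 10 in knockout hosts (19.6%, background 13.7%). In wild-type hosts the 9, and the 6 with an unadjusted p under 0.05, each hold all Igfbp4 probe sets. Those target 1 transcript, so these shares count that gene more than once.

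**Figure D2:**
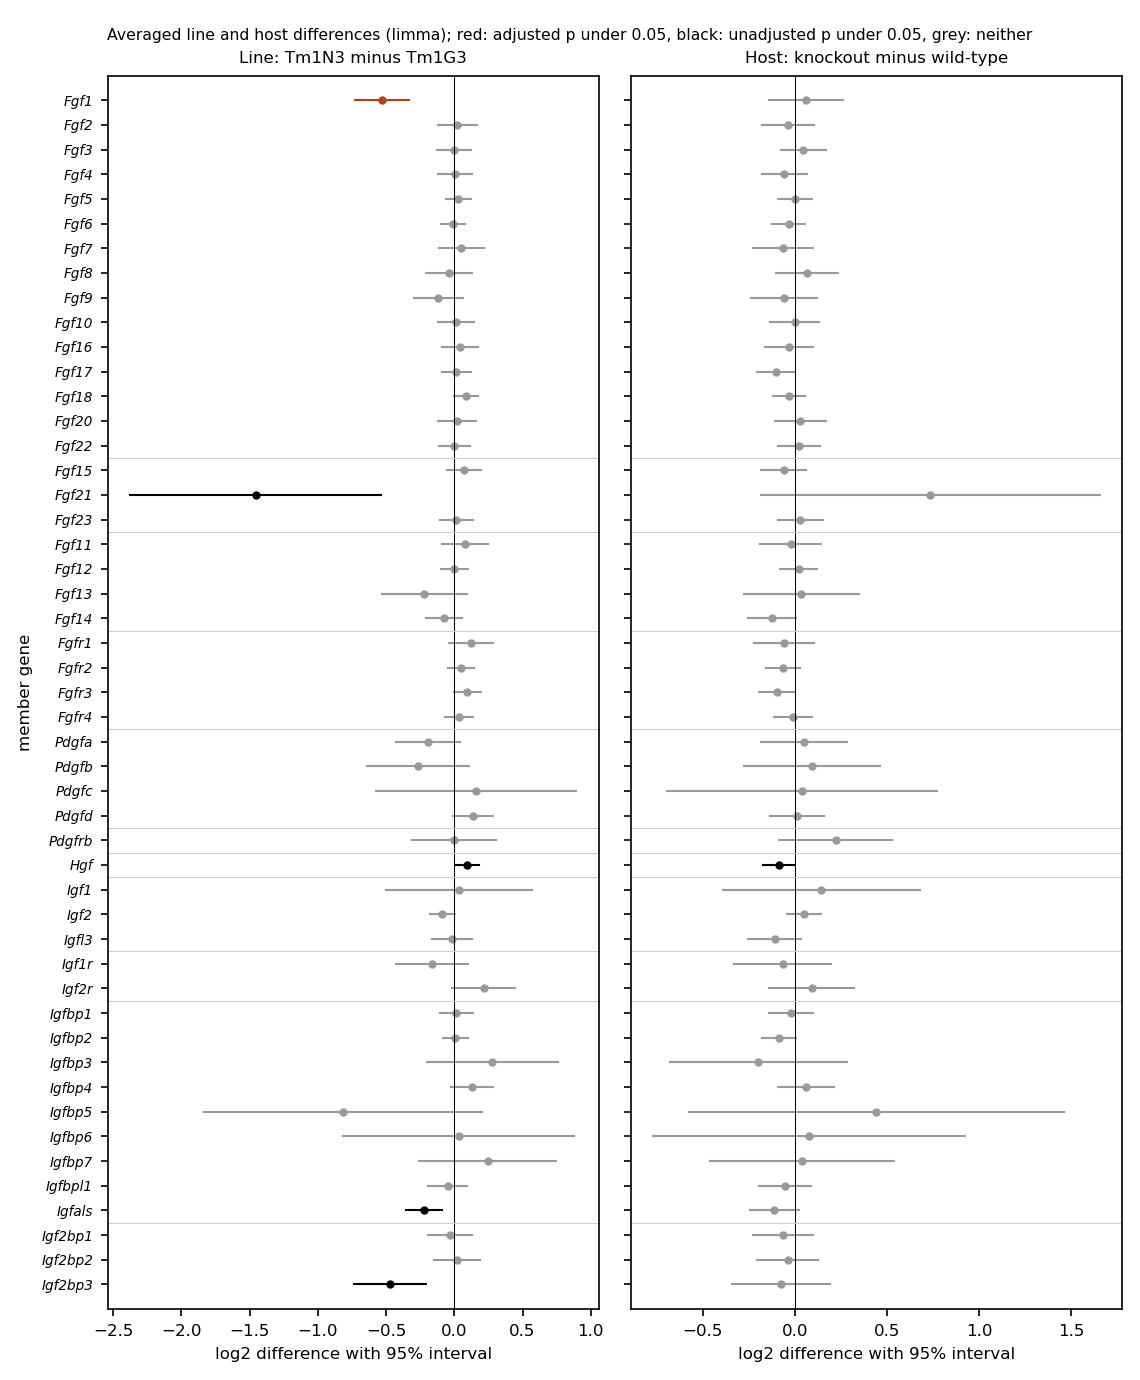
Averaged line difference (left, Tm1N3 minus Tm1G3) and averaged host difference (right, knockout minus wild-type) of each gene on the log2 scale, with limma's 95% interval; red marks an adjusted p under 0.05, black an unadjusted p under 0.05 and grey neither. Fgf1 is the only red point, in the line panel, and Fgf21 at -1.46 is the farthest from 0.

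Fgf1, acidic FGF, binds all FGF receptors and leaves cells without a classical signal peptide. Its log2 level was 6.17, 5.95 and 5.83 in Tm1N3 tumours of wild-type mice and 6.28, 6.15 and 5.77 in those of knockout hosts. In Tm1G3 tumours it was 6.47, 6.56 and 6.56 in wild-type hosts and 6.64, 6.46 and 6.62 in knockout hosts. All 6 Tm1N3 arrays lay below all 6 Tm1G3 arrays, a separation seen in 3.29% of all probe sets. The averaged difference was -0.53 ± 0.09 (SE, n = 6 against 6), with a 95% interval from -0.73 to -0.33, so Fgf1 was 1.44-fold lower in Tm1N3 tumours (limma, Benjamini-Hochberg adjusted p = 0.00808). The two-sided exact permutation p was 0.00216, the smallest that 6 against 6 arrays can give.

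The Fgf1 difference was of like size in both hosts, -0.55 ± 0.13 in wild-type and -0.51 ± 0.13 in knockout hosts (SE), and neither passed alone (limma, adjusted p = 0.0684 and 0.106). The difference between these was 0.04 ± 0.18 (unadjusted p = 0.808, limma). Leaving out each array in turn left Fgf1 past the threshold every time (limma, adjusted p from 0.00623 to 0.0264). It did not pass when the deposited values were quantile normalized again, which gave -0.47 (limma, adjusted p = 0.0547).

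Marker genes differed between the lines beside Fgf1. Kit, which melanocytes and mast cells need to respond to stem cell factor, was lower in Tm1N3 tumours (-0.99 ± 0.15, SE; limma, adjusted p = 0.00379) with array levels from 4.91 to 6.07 against 6.20 to 7.22. In wild-type hosts the Kit difference was -0.44 and did not pass, and in knockout hosts it was -1.55 and passed. The difference between these was -1.12 (limma, unadjusted p under 0.05) and did not pass. Kit was the 1 measured of 12 melanocyte markers. Mcam, 1 of 3 measured of 7 pericyte and smooth muscle markers, was higher (0.66 ± 0.15). The other measured ones, Cspg4 (0.09) and Pdgfrb (-0.0024, itself a gene of the set), did not pass. Which cells gave the Mcam and Cspg4 signal cannot be told from whole tumours. The pericyte list's mean level ran from 7.67 to 8.25 in Tm1N3 and from 7.52 to 8.15 in Tm1G3 tumours, and the fibroblast list's (4 of 13 measured) from 6.02 to 7.67 and from 6.34 to 7.12. Fbln5 of the fibroblast list was higher (0.76), while Dcn (-0.51), Lum (-0.0021) and Pdgfra (0.06) did not pass. Of 5 measured of 13 endothelial markers Icam2 was lower (-0.40) and 4 did not pass, 3 of the 5 had differences above 0, and the list's mean ran from 7.31 to 7.94 in Tm1N3 and from 7.46 to 8.06 in Tm1G3 tumours. Ccl5, 1 of 3 measured of 12 T and NK cell markers, was lower (-0.65), and the other two did not pass. Of the macrophage (5 of 12 measured), neutrophil (2 of 8) and platelet (2 of 5) lists 0 genes passed, and of the epithelial and adipocyte lists 0 were measured. The part of these cell types in the Fgf1 difference was not tested.

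**Figure D3:**
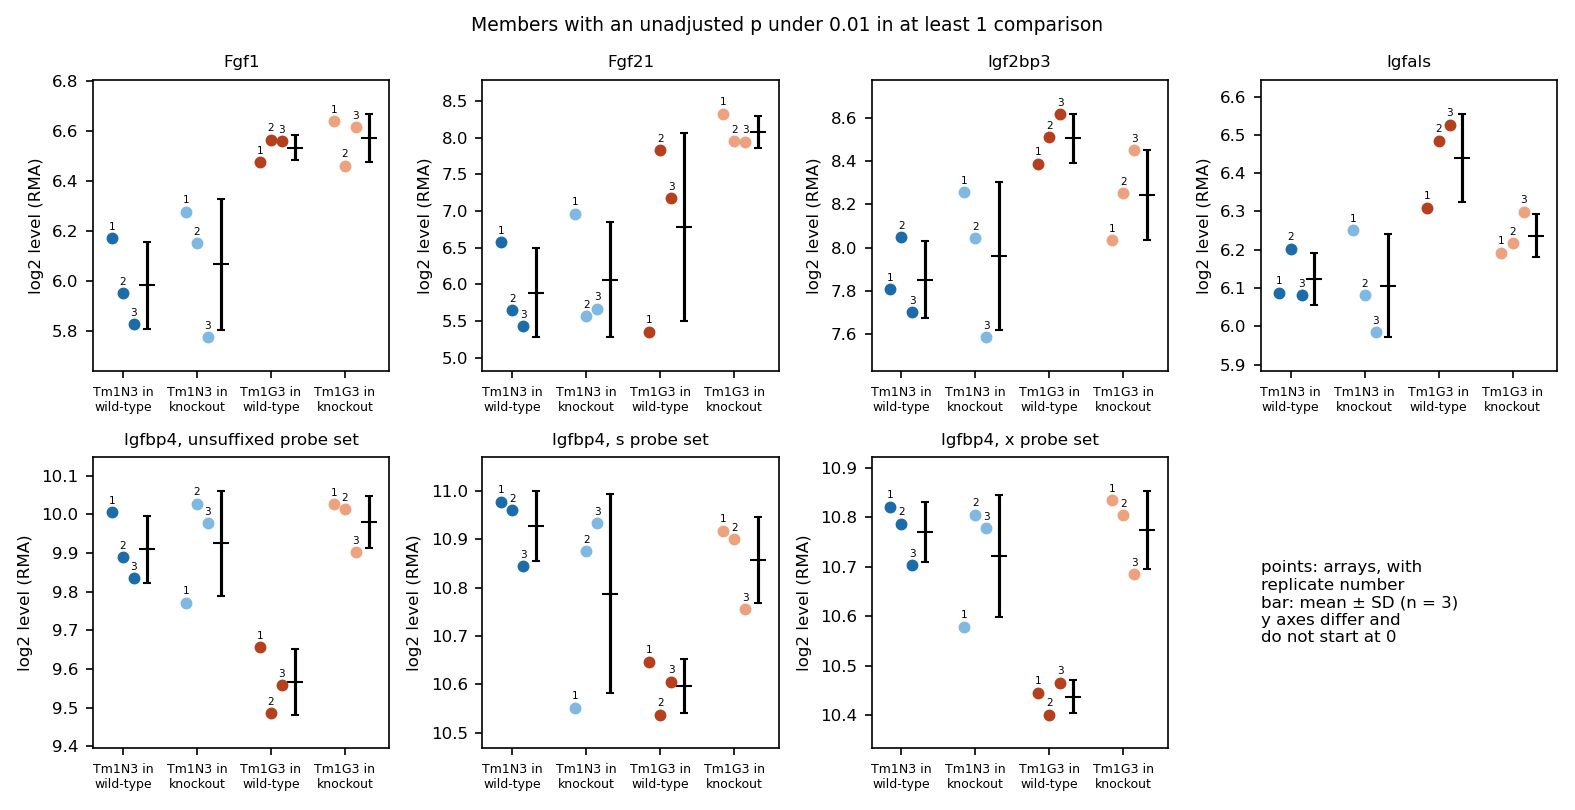
Log2 level of Fgf1, Fgf21, Igf2bp3, Igfals and the 3 Igfbp4 probe sets on each array (points with replicate number) by group, with mean and SD (n = 3); the vertical axes differ and do not start at 0. Fgf1 shows 6 low and 6 high arrays by line, 1 Tm1G3 array of wild-type hosts lies at 5.35 for Fgf21, and the Igfbp4 mean is lowest in Tm1G3 tumours of wild-type hosts on all 3 probe sets.

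Fgf21 is a hormone-like FGF of liver and stressed cells that needs the co-receptor Klb. Tm1N3 tumours gave 6.57, 5.65 and 5.43 in wild-type hosts and 6.96, 5.56 and 5.67 in knockout hosts. Tm1G3 tumours gave 5.35, 7.82 and 7.18 in wild-type hosts and 8.33, 7.95 and 7.94 in knockout hosts. So 5 of 6 Tm1G3 arrays stood above all 6 Tm1N3 arrays, and replicate 1 of Tm1G3 tumours in wild-type hosts was the lowest of the 12. The averaged difference of -1.46 ± 0.41 (SE; 95% interval -2.38 to -0.54; 2.74-fold) did not pass over all probe sets (limma, adjusted p = 0.0849), while the two-sided exact permutation p for this gene alone was 0.0281.

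The Fgf21 call turned on single arrays. Without replicate 1 of Tm1G3 tumours in wild-type hosts the difference was -1.81 and passed (limma, adjusted p = 0.00768), and without replicate 1 of Tm1N3 tumours in knockout hosts it was -1.68 (limma, adjusted p = 0.0492). In the other fits with 1 array left out it did not pass. In knockout hosts, where the lines did not overlap, the difference was -2.01 ± 0.59, 4.03-fold (limma, adjusted p = 0.196). In wild-type hosts it was -0.90 ± 0.59 (limma, adjusted p = 0.612), and the difference between the hosts was -1.11 ± 0.83 (unadjusted p = 0.210, limma).

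The array that was lowest for Fgf21 was the highest of the 12 on the mean of the 5 measured macrophage markers (7.78, with 7.75 the next) and on that of the 2 measured neutrophil markers (6.33, against 4.94 to 5.41 elsewhere). Adgre1, the F4/80 antigen of macrophages, was 7.98 there, the highest of the 12 arrays. The other measured macrophage markers, Csf1r, Mrc1, Siglec1 and Ccr2, were each higher on replicate 3 of Tm1N3 tumours in knockout hosts. That array had the next highest macrophage mean, so the order of these means rested on Adgre1 alone. By group the macrophage mean ran from 6.52 to 7.47 and from 6.06 to 7.75 in Tm1N3 tumours of wild-type and then knockout hosts, and from 6.59 to 7.78 and from 6.79 to 7.22 in Tm1G3 tumours. The part of macrophage and neutrophil content in the Fgf21 values was not tested.

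Of the other paracrine FGF ligands none passed, and their differences were small. With Fgf1 counted in, the 15 paracrine ligands had averaged line differences from -0.53 (Fgf1) to 0.09, with 10 above 0, and a median of 0.01. Fgf22, which acts at synapses and in skin and had the next brightest signal of the FGF genes after Fgf21 and Fgf1, was 5.92, 5.99 and 6.07 in Tm1N3 tumours of wild-type mice and 5.92, 5.93 and 5.90 in those of knockout hosts. In Tm1G3 tumours it was 6.02, 5.91 and 5.75 in wild-type hosts and 5.95, 6.04 and 6.06 in knockout hosts. Its whole range was 0.32, and the lines overlapped in wild-type hosts and lay just apart in knockout hosts (-0.10 ± 0.07, SE; limma, adjusted p = 0.799). The endocrine members Fgf15 and Fgf23 lay in the lowest 25% of signal, as did 3 of the 4 FGF homologous factors, which stay inside cells and bind sodium channels, and none of these passed.

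The 4 FGF receptors (Fgfr1 to Fgfr4) had averaged line differences from 0.04 to 0.12, all above 0, and none passed. That sign held with each array centred on its median and after quantile normalizing again. Their levels were flat, with ranges over 12 arrays from 0.20 (Fgfr2) to 0.40 (Fgfr1).

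Other genes of FGF signalling and of heparan sulfate were taken from a list of 19 regulators and co-receptors and a list of 36 heparan sulfate genes. Their part in the response to FGF was not tested. Of the 19 only Il17rd, a membrane inhibitor of FGF receptor signalling, was measured; it was lower in Tm1N3 tumours (-0.81 ± 0.09, SE; limma, adjusted p = 0.00134). Its levels ran from 3.99 to 4.37 in Tm1N3 and from 4.73 to 5.24 in Tm1G3 tumours, without overlap. Of 35 measured heparan sulfate genes 1 was higher, 3 were lower and 31 did not pass, with a median of 0.01, where 4.25% of the array passed. Hs3st1, which adds 3-O-sulfate, was higher (1.89 ± 0.26; limma, adjusted p = 0.00320), and the core proteins Sdc2 (-0.52 ± 0.09) and Gpc6 (-0.41 ± 0.09) and the heparan sulfate cleaving enzyme gene Hpse (-0.46 ± 0.10) were lower.

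PDGF ligands did not pass in any comparison. Pdgfa, whose product acts mainly on Pdgfra, was 8.28, 8.17 and 8.13 in Tm1N3 tumours of wild-type mice and 7.82, 8.19 and 8.13 in those of knockout hosts. In Tm1G3 tumours it was 8.39, 8.23 and 7.96 in wild-type hosts and 8.72, 8.36 and 8.23 in knockout hosts. The lines overlapped in wild-type hosts and not in knockout hosts, where the difference was -0.39 ± 0.15 (SE; limma, adjusted p = 0.371).

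Pdgfb, the ligand that recruits pericytes to vessels, was 7.22, 6.83 and 7.12, then 6.67, 7.11 and 7.33 in Tm1N3 tumours of wild-type and then knockout hosts. In Tm1G3 tumours it was 7.66, 6.87 and 7.10 in wild-type and 7.78, 7.30 and 7.17 in knockout hosts. Replicate 1 was the highest of its group in both hosts of Tm1G3 tumours and the lowest in Tm1N3 tumours of knockout hosts, and the groups overlapped (averaged line difference -0.27 ± 0.17, SE; limma, adjusted p = 0.517). Without replicate 1 of Tm1G3 tumours in wild-type hosts the difference was -0.15. Pdgfd lay at the 3.53 percentile of signal.

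Pdgfrb, the PDGF receptor of pericytes, was 7.01, 6.64 and 6.83 in Tm1N3 tumours of wild-type mice and 6.59, 6.98 and 7.38 in those of knockout hosts. It was 6.94, 6.62 and 6.75 in Tm1G3 tumours of wild-type hosts and 7.34, 6.87 and 6.94 in those of knockout hosts. All 4 groups overlapped, and no line or host difference passed (averaged host difference 0.22 ± 0.14, SE; limma, adjusted p = 0.751). Of 11 other genes of PDGF receptors, processing and related receptors, 4 were measured: Kit was lower, as above, and Pdgfra, Csf1r and Flt3 did not pass.

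Hgf had one of the lowest signals of the array, at the 1.85 percentile. It was 2.74, 2.70 and 2.81 in Tm1N3 tumours of wild-type mice, 2.61, 2.67 and 2.71 in those of knockout hosts, 2.62, 2.67 and 2.67 in Tm1G3 tumours of wild-type hosts and 2.54, 2.58 and 2.57 in those of knockout hosts. In each host the Tm1N3 arrays lay above the Tm1G3 arrays without overlap, on a whole range of 0.27, and neither the line difference (0.10 ± 0.04, SE; limma, adjusted p = 0.216) nor the host difference (-0.09 ± 0.04; limma, adjusted p = 0.749) passed. Met, the HGF receptor, was at the 99.6 percentile, between 12.16 and 12.63 on all 12 arrays, and did not pass (0.09 ± 0.06). Met and Cd44, a co-receptor, were the 2 measured of 11 genes of HGF activation and reception, and 0 passed.

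IGF ligands, here Igf1, Igf2 and by its symbol Igfl3, did not pass. Igf1, which stromal cells and macrophages make, is described below with the genes of wide range. Igf2, the fetal growth factor, lay between 5.61 and 5.77 in Tm1N3 tumours, between 5.70 and 5.74 in Tm1G3 tumours of wild-type hosts and between 5.80 and 5.90 in Tm1G3 tumours of knockout hosts. In knockout hosts its lines did not overlap, with a difference of -0.16 ± 0.06 (SE; limma, adjusted p = 0.360). Of 16 further genes of IGF and insulin receptors, processing and substrates 0 were measured.

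The 2 IGF receptors had bright probe sets. Igf1r, the signalling receptor, was 7.45, 7.87 and 7.34, then 7.11, 7.43 and 7.35 in Tm1N3 tumours of wild-type and then knockout hosts, and 7.62, 7.69 and 7.27, then 7.90, 7.57 and 7.48 in Tm1G3 tumours in the same order. The lines overlapped in wild-type but not in knockout hosts, where the difference was -0.35 ± 0.17 (SE; limma, adjusted p = 0.593).

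Igf2r, which clears Igf2 and sorts lysosomal enzymes, was 10.25, 10.35 and 10.06 in Tm1N3 tumours of wild-type mice and 9.95, 10.46 and 10.39 in those of knockout hosts. Tm1G3 tumours gave 10.11, 10.01 and 9.75 in wild-type hosts and 10.17, 10.19 and 9.93 in knockout hosts. The lines overlapped in both hosts (averaged line difference 0.22 ± 0.10, SE; limma, adjusted p = 0.344).

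Igfbp4, a secreted protein that holds IGFs away from their receptor, had 3 probe sets, and the same group was low on each. The unsuffixed probe set gave 9.66, 9.49 and 9.56 in Tm1G3 tumours of wild-type hosts and 10.03, 10.01 and 9.90 in those of knockout hosts. Tm1N3 tumours gave 10.01, 9.89 and 9.84 in wild-type and 9.77, 10.03 and 9.98 in knockout hosts. The probe set with the x suffix gave 10.44, 10.40 and 10.47 in the low group and from 10.58 to 10.83 on the other 9 arrays, and the one with the s suffix ran from 10.54 to 10.65 and from 10.55 to 10.98. On the unsuffixed and x probe sets the low group lay below all other arrays, and on the s probe set replicate 1 of Tm1N3 tumours in knockout hosts (10.55) fell within it. The 3 probe sets target 1 transcript and are no replicates of each other.

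The host difference of Igfbp4 in Tm1G3 tumours, knockout minus wild-type, was 0.41, 0.26 and 0.34 on the unsuffixed, s and x probe sets. The unadjusted p of the unsuffixed one, 0.000464, was the smallest of the 1246 in that comparison, and none passed (limma, adjusted p = 0.531, 0.752 and 0.531). The line difference in wild-type hosts was 0.34, 0.33 and 0.33, also without a pass (limma, adjusted p = 0.0736, 0.138 and 0.0565), and in knockout hosts -0.06, -0.07 and -0.05. Both differences use the same low group. For each of these 3-against-3 differences of wild-type Tm1G3 tumours the two-sided exact permutation p was 0.1, the smallest such a design allows.

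The test of whether the Igfbp4 line difference itself depended on the host gave -0.40, -0.40 and -0.39 (unadjusted p = 0.00622, 0.0146 and 0.00352, limma), and none passed (limma, adjusted p = 0.996 for each). With an unadjusted p under 0.05 in that test, the 3 Igfbp4 probe sets were the only ones of the 51 (5.88%), beside 2.81% of the array. That share came from 1 gene, as they target 1 transcript. Leaving out replicate 1 of Tm1N3 tumours in knockout hosts let the x probe set pass in the wild-type line comparison (limma, adjusted p = 0.0407).

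Igfals, the acid-labile subunit that carries IGFs in blood with Igfbp3, had a line difference below 0 that did not pass. It gave 6.09, 6.20 and 6.08 in Tm1N3 tumours of wild-type mice and 6.25, 6.08 and 5.98 in those of knockout hosts, against 6.31, 6.49 and 6.53 and then 6.19, 6.22 and 6.30 in Tm1G3 tumours. The lines did not overlap in wild-type hosts and overlapped in knockout hosts. The averaged difference was -0.22 ± 0.06 (SE; limma, adjusted p = 0.0673); it passed without replicate 1 of Tm1N3 tumours in knockout hosts (limma, adjusted p = 0.0310) or without replicate 1 of Tm1G3 tumours in wild-type hosts (limma, adjusted p = 0.0350). After quantile normalizing again it was -0.13 (limma, adjusted p = 0.588).

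Igf2bp3, an oncofetal RNA-binding protein, showed the same order of lines. Its brightest probe set, which carries the x suffix, gave 7.81, 8.05 and 7.70 in Tm1N3 tumours of wild-type mice and 8.26, 8.04 and 7.58 in those of knockout hosts. Tm1G3 tumours gave 8.39, 8.51 and 8.62 in wild-type and 8.03, 8.25 and 8.45 in knockout hosts. The lines did not overlap in wild-type hosts and overlapped in knockout hosts. The averaged difference was -0.47 ± 0.12 (SE; limma, adjusted p = 0.0571), and the other Igf2bp3 probe set gave -0.33 ± 0.13. The first passed in 3 of 19 alternatives: without replicate 1 of Tm1N3 tumours in knockout hosts, without replicate 1 of Tm1G3 tumours in knockout hosts and with the dimmest 25% of probe sets left out (limma, adjusted p = 0.0267, 0.0497 and 0.0473). The other, which carries the s suffix, was far dimmer, with a mean over the 12 arrays of 4.06 against 8.14. Its range was 0.98, and its lines overlapped in wild-type hosts too (-0.46 ± 0.19, SE; limma, adjusted p = 0.310). Both suffixes mark probes that can be shared between transcripts, and which transcripts gave either signal was not tested.

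**Figure D4:**
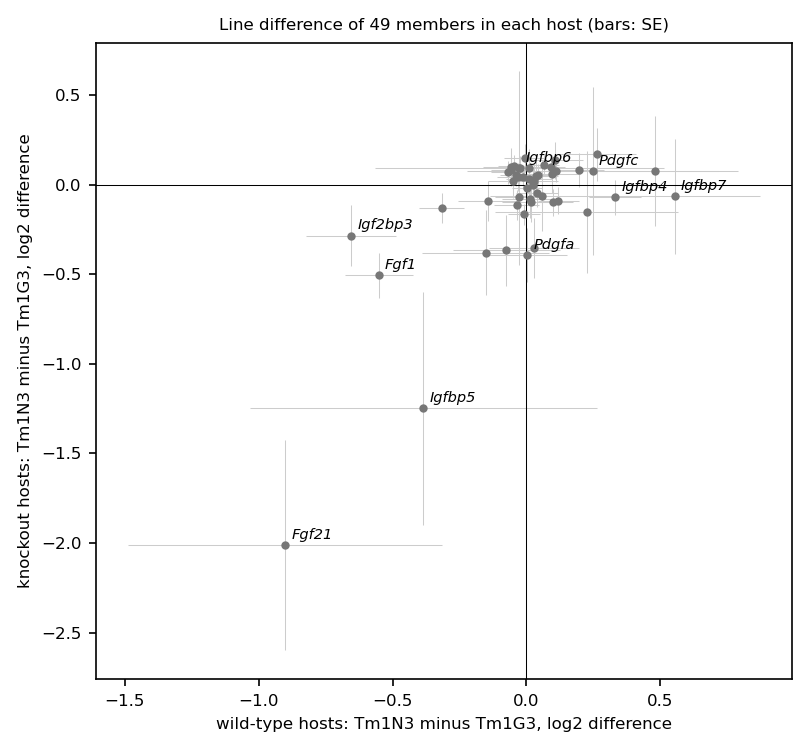
Line difference (Tm1N3 minus Tm1G3, log2) of the 49 genes in wild-type hosts (horizontal) against knockout hosts (vertical), with bars of 1 SE. Most genes sit near 0 on both axes; Fgf1 lies at about equal distance below 0 on both (-0.55 and -0.51), while Fgf21 (-0.90 and -2.01) and Igfbp4 (0.33 and -0.07 on its brightest probe set) do not.

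The host comparison asks what differs between tumours of Gal3 -/- and wild-type mice, and is given as knockout minus wild-type. In none of its 3 forms did a probe set pass, so the background was 0% for each: the smallest adjusted p of the array was 0.963 in Tm1N3 tumours, 0.531 in Tm1G3 tumours and 0.226 averaged (limma, Benjamini-Hochberg). In Tm1N3 tumours 0 of the 51 had an unadjusted p under 0.05, beside 4.33% of the array. In Tm1G3 tumours 5 did (background 6.18%), the 3 Igfbp4 probe sets higher and Igfals (-0.20) and Igfbp2 (-0.13) lower in knockout hosts. Averaged over lines 3 did (background 6.26%): Hgf and 2 probe sets of Igfbp4.

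In Tm1G3 tumours the hosts did not overlap for 13 of the 51 probe sets (25.5%), beside 12.4% of the array. Higher on all 3 knockout arrays were Fgf3, Fgf21, Igf2 and the 3 Igfbp4 probe sets, and lower were Fgf5, Fgf7, Fgf18, Fgfr2, Hgf, Igfals and Igfbp2. Of these Fgf21 had the widest difference (1.29 ± 0.59, SE; limma, adjusted p = 0.764). Much of that came from replicate 1 in wild-type hosts (5.35). Replicates 2 and 3 there gave 7.82 and 7.18, and the knockout arrays 8.33, 7.95 and 7.94. In Tm1N3 tumours 1 did not overlap, Fgfr3 (-0.11), beside 7.62% of the array, and averaged over lines 0 of the 51, beside 0.562%. Whether these counts differ between the lines was not tested.

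By role, the 4 FGF receptors had host differences in Tm1G3 tumours from -0.08 to -0.07, and the 4 PDGF ligands from 0.07 to 0.25. The median of all probe sets there was -0.011. Those signs held with each array centred and after quantile normalizing again. In Tm1N3 tumours the PDGF ligands ran from -0.15 to -0.02 and the FGF receptors from -0.11 to 0.05, on both sides of 0. None of these 8 genes passed in any host comparison. The FGF receptors and PDGF ligands were singled out after their signs were seen. In Tm1G3 tumours the paracrine FGF ligands had 6 genes above and 9 below 0, and the IGF binding proteins 5 and 4. The 2 IGF receptors lay above 0 under each scaling. The 3 IGF2 mRNA binding proteins lay below 0, but not all of them after quantile normalizing again.

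A range of 1 or more on the log2 scale over the 12 arrays was found in 9 genes (18.4% of the 49, beside 12.4% of all probe sets), which were picked out after their values were seen. They were Igfbp5 (3.85), Fgf21 (2.97), Igfbp6 (1.87), Pdgfc (1.79), Igfbp3 (1.34), Igf1 (1.32), Igfbp7 (1.16), Pdgfb (1.11) and Igf2bp3 (1.04). Replicate 1 of Tm1N3 tumours in knockout hosts was the lowest array in 6 of the 9, and replicate 3 of that group the highest in 5. Over the 154 probe sets of the array with such a range the former was the lowest in 44.8% and the latter the highest in 27.3%.

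Igfbp6, which binds Igf2 above Igf1, was 6.18, 6.16 and 7.73 in Tm1N3 tumours of wild-type mice and 6.16, 6.29 and 8.03 in those of knockout hosts. Tm1G3 tumours gave 6.60, 6.36 and 7.20, then 7.20, 6.43 and 6.58. The 2 Tm1N3 arrays numbered 3 were the highest, and the 4 group means lay between 6.69 and 6.83.

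Pdgfc, a PDGF secreted in a latent form that acts on Pdgfra, was 5.66, 5.76 and 6.87 in Tm1N3 tumours of wild-type mice and 5.32, 5.73 and 7.11 in those of knockout hosts. In Tm1G3 tumours it was 5.36, 5.77 and 6.43, then 6.28, 5.83 and 5.83. Igf1 was 5.50, 5.69 and 6.45, then 5.34, 5.51 and 6.66 in Tm1N3 tumours, and 5.50, 5.51 and 5.95, then 6.25, 5.89 and 5.82 in Tm1G3 tumours. In both genes replicate 3 was high in every group but Tm1G3 tumours of knockout hosts, where replicate 1 was. No line or host difference passed for Pdgfc (averaged line difference 0.16 ± 0.33, SE) or Igf1 (0.04 ± 0.24).

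The measured fibroblast markers (Pdgfra, Dcn, Lum and Fbln5) did not all move alike. Pdgfra, Dcn and Lum stood highest on the 2 Tm1N3 arrays numbered 3 and lowest on replicate 1 of Tm1N3 tumours in knockout hosts. Fbln5 instead separated the lines, from 5.23 to 5.94 in Tm1N3 and from 4.60 to 5.00 in Tm1G3 tumours. The mean log2 level of the 4 was 7.67 and 7.66 on the 2 Tm1N3 arrays numbered 3, the highest of the 12, and 6.02 on replicate 1 of Tm1N3 tumours in knockout hosts, the lowest. On replicates 3 and 1 of Tm1G3 tumours in wild-type hosts and replicate 1 in knockout hosts it was 7.12, 6.96 and 6.96. By group its range was 6.52 to 7.67 and 6.02 to 7.66 in Tm1N3 tumours of wild-type and knockout hosts, and 6.52 to 7.12 and 6.34 to 6.96 in Tm1G3 tumours. The macrophage mean was also high on the 2 Tm1N3 arrays numbered 3, at 7.47 and 7.75, and lowest at 6.06 on replicate 1 of Tm1N3 tumours in knockout hosts. The part of fibroblast and macrophage content in the spread of these genes was not tested.

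**Figure D5:**
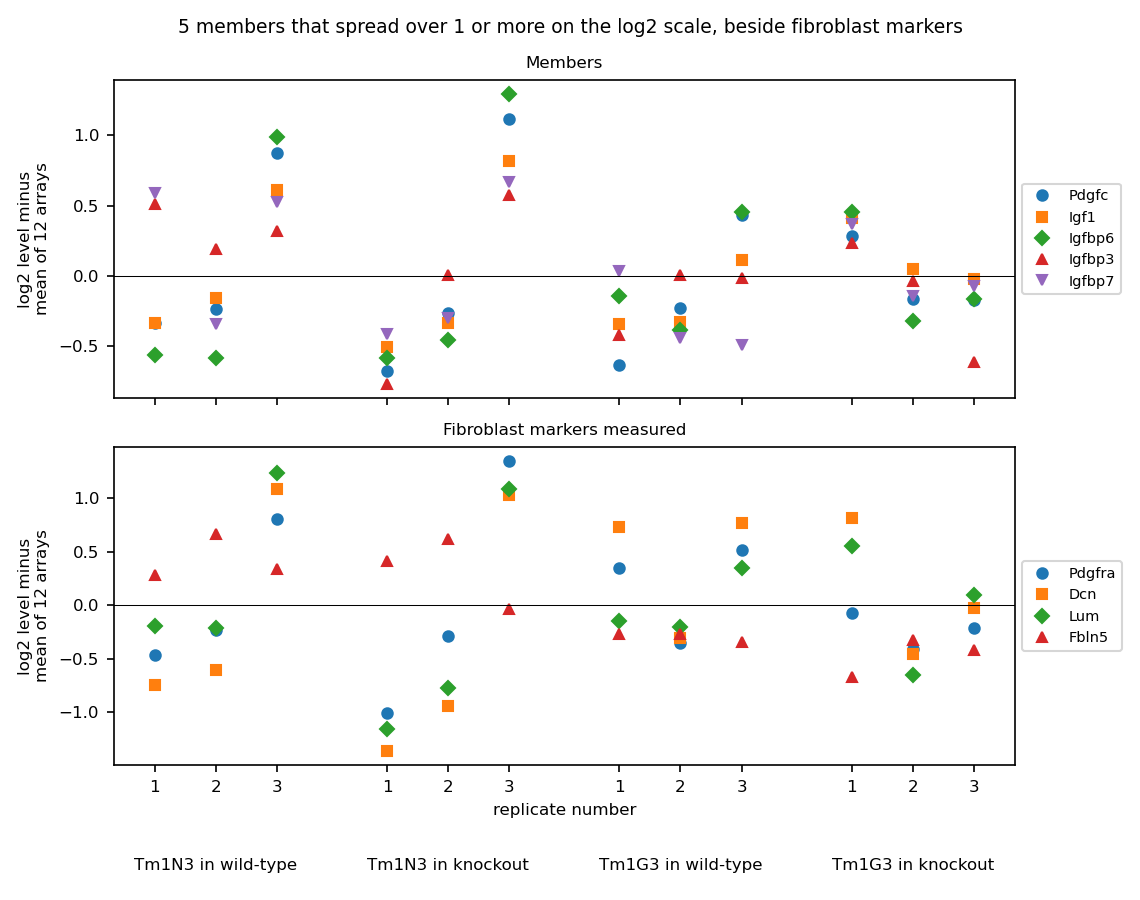
Log2 level on each of 12 arrays, minus the gene's mean over the arrays, for 5 genes of the set (upper panel) and the 4 measured fibroblast markers (lower panel), by group and replicate number. Pdgfc, Igf1 and Igfbp6 stand highest on the 2 Tm1N3 arrays numbered 3, where the markers' mean is highest too.

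Igfbp7 and Igfbp3, binding proteins found in vessels, matrix and blood, had bright probe sets. Igfbp7 was 10.63, 9.70 and 10.57 in Tm1N3 tumours of wild-type mice, 9.63, 9.74 and 10.71 in those of knockout hosts, and 10.08, 9.61 and 9.55, then 10.41, 9.90 and 9.97 in Tm1G3 tumours. Igfbp3 was 10.04, 9.72 and 9.85, then 8.76, 9.53 and 10.10 in Tm1N3 tumours, and 9.11, 9.54 and 9.51, then 9.76, 9.49 and 8.92 in Tm1G3 tumours. For each gene the 3 highest arrays were Tm1N3 tumours, and the low end held arrays of both lines. In wild-type hosts the lines did not overlap for Igfbp3 (0.48 ± 0.31, SE; limma, adjusted p = 0.602).

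Igfbp5, a binding protein of matrix and bone, had its range set by 1 array. It was 7.97 on replicate 1 of Tm1G3 tumours in knockout hosts and 5.62 and 5.15 on the other two of that group. Elsewhere it ran from 4.13 on replicate 1 of Tm1N3 tumours in knockout hosts to 5.84 on replicate 3 of the same group. The extremes were 14.4-fold apart. The averaged line difference was -0.82 ± 0.46 (SE; limma, adjusted p = 0.439).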

How the data were processed

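Trizol-extracted RNA was biotin-labelled and hybridised by an Affymetrix protocol, per the labels' protocols. The values are on a log2 scale as the authors deposited them, made with RMA (background correction, quantile normalization and probe summary), per the submitters' processing notes; no version, build or depth is given, and values ran from 2.14 to 13.9. Probe sets were named by RefSeq accession through a table of assembly GRCm38.p6: 963 of 1246 matched. Suffixes s, x or a (14 of the 51 probe sets) mark probes that can be shared between transcripts.

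All 12 arrays entered 1 fit of the 4 group means (limma 3.58.1, functions lmFit and eBayes, under R 4.3.3), with 8 residual and 2.39 prior degrees of freedom, and p-values were adjusted by Benjamini-Hochberg over 1246 probe sets with a threshold of 0.05. Errors are SD for levels and moderated SE for differences. The script was tested on simulated data. The set, gene lists and rules were chosen with earlier results of these data known. Array values are given for members past an adjusted p of 0.05, or an unadjusted p under 0.01, in any comparison and for the 3 brightest members of a family; list genes past the threshold, and up to 4 a list, may be named. Igf2, Igfbp2, members named for groups that did not overlap and the genes with a range of 1 or more were chosen after their values were seen. So were the roles named for their host differences in Tm1G3 tumours, and the fit without both Tm1N3 arrays numbered 3.

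Groups share replicate numbers. Deviations of same-numbered arrays from their group means correlated from 0.184 to 0.752 between the hosts of Tm1N3 tumours and from 0.249 to 0.308 between the hosts of Tm1G3 tumours, each above the cut of 0.1. For that reason an alternative fit took arrays of 1 number and line as a block. Arrays of unlike number were not compared, so these correlations cannot show that the numbers pair the hosts. The reported fit had no replicate block. Between lines the lowest and highest were 0.00808 and 0.544 for wild-type mice, -0.660 and 0.272 for knockout mice, so not all were above the cut.

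Alternatives were array centring, quantile normalization, leaving out the dimmest 25% of probe sets, an eBayes trend, fits of the compared groups only, replicate blocks, all probe sets per gene and leaving out each array.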

Additional observations from a re-analysis of the deposited data

How the results depend on the processing

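Of 27 differences of single members under these alternatives, 499 refits kept direction and side of the threshold, 12 turned the direction, 10 gained a call and 1 lost it. In the averaged line comparison the count of members past the threshold, 1 as reported, was 0 after quantile normalizing again, 2 without the dimmest 25% of probe sets and from 1 to 4 with 1 array left out, 4 without replicate 1 of Tm1N3 tumours in knockout hosts, 3 without replicate 1 of Tm1G3 tumours in wild-type hosts and 2 without replicate 1 of Tm1G3 tumours in knockout hosts. In wild-type hosts the count of 0 ran from 0 to 2 with 1 array left out, the 2, without replicate 3 of Tm1N3 tumours in knockout hosts, being Fgf1 and Igf2bp3. Both replicate block fits, with the number as a fixed block and with arrays of 1 number and line as a random block, gave 1 in the averaged line comparison and 0 in each of the others, and changed no other call. The causes were not tested. Quantile normalizing again also turned the array's split of calls from 16 higher and 37 lower to 29 and 28. Near 0, the averaged line difference of Pdgfrb (-0.0024) turned to 0.00032 with each array centred and 0.0898 after quantile normalizing again and ran from -0.10 to 0.10 with 1 array left out, and that of Fgf22 (0.00099) ran from -0.0346 to 0.0322 and was -0.0136 without both Tm1N3 arrays numbered 3. Over the whole array the averaged line count ran from 32 (without replicate 2 of Tm1G3 tumours in knockout hosts) to 63, the wild-type line count of 11 from 2 (without replicate 3 of Tm1G3 tumours in wild-type hosts) to 21, and the knockout line count of 9 from 4 (with only the compared groups fitted; 5 without replicate 1 or 2 of its Tm1G3 tumours) to 13. With 3 arrays a group, small differences may go uncalled; signal over background could not be examined, which bears most on Hgf and the other 12 genes in the lowest 25% of signal.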
